A study of Rattus norvegicus with 20 samples.

Results

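The 28 genes described here were expressed above whisker follicle cells in cultures of all 4 non-hair epithelia, bladder, trachea, vagina and thymus, and were less than 1 unit above the whisker level, on a log2(CPM+1) scale, in at least 3 of them after the cells had been transplanted into skin and recovered. They were chosen from the 32494 genes listed by their group levels L, the mean over the 2 samples of a group of log2(CPM+1), where CPM is a gene's count scaled to the total of reads counted on genes in its sample. A gene entered when its L was at least 1 above that of whisker cells before transplantation in each of the 4 tissues before, and less than 1 above the same reference in at least 3 of the 4 tissues after. Genes whose symbol starts with Slc, Krt, Col, Itg, Cdh, Hox, Fox or Wnt were to be left out, which removed 0 genes. For genes without a symbol this could not be checked. Of 329 genes that were higher before in all 4 tissues, 92 stayed at least 1 above that reference in all 4 after transplantation, 136 were low in 1 tissue, 73 in 2, 19 in 3 and 9 in all 4. The last 2 classes hold the 28 genes. The levels before and after in the 4 tissues and in whisker cells before transplantation therefore chose the genes. Differences of the 4 tissues from whisker before, and between before and after within them, are given below as a description without a test. Symbols could be paired with 12 of the 28: Amot, Cplx2, Adam19, Chn1, Gpd1, Atp2a3, B4galt4, Acss3, Isg15, Cnksr2, Cryab and Nhsl2. The other 16 are known here only by their Ensembl identifier and are described by counts and ranges.

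The study asked what happens to stem cells of non-hair epithelia placed in skin that is forming hair. Epithelial cells of the green rat (CZ-004 SDTgN (act-EGFP)OsbCZ-004, a Sprague-Dawley strain that carries an EGFP transgene) were cultured on irradiated 3T3-J2 feeder cells, from whisker follicle at postnatal day 57 (PN57), thymus at PN137, vagina and trachea at PN200 and bladder dome at PN201. The groups called before are these cultures, and the groups called after, or recovered, are cells grown again from transplants in newborn mouse skin grafted onto nude mice. Cells of every group, whisker included, carried EGFP and were sorted for it before RNA was extracted. Each of the 10 groups, 5 tissues before and after, had 2 samples, 20 in all. Whisker cells were clone 7 before and subclone 14 after, so the reference was 1 clone, while the labels of the thymus cells before name both a bulk culture and clone 9. Nothing in the sources says that the 2 samples of a group came from separate animals or cultures, so the p values measure only the spread between these samples.

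A stem cell that is moved to a new tissue can keep the expression programme of its origin, which is called positional or lineage memory, or can take up that of its new surroundings. Hair follicle morphogenesis in newborn skin depends on signals exchanged between the epithelium and the dermis beneath it, among them Wnt, Shh, BMP and Notch signals. The 12 named genes belong to no single pathway, and their grouping by role below was made with their values known. Amot, Chn1, Cnksr2 and Adam19 act at cell junctions, in small GTPase signalling and at the cell surface. Cplx2 and Atp2a3 act in exocytosis and calcium storage, Gpd1, Acss3 and B4galt4 are metabolic enzymes and a glycosyltransferase, and Isg15 and Cryab belong to the interferon and stress responses.

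The samples held from 20723083 to 29824855 reads assigned to genes. A gene with 3 counts, taken as the smallest level shown, lay between 0.101 and 0.145 CPM, and several of the genes were near that level in whisker cells. In the mean over genes, replicates differed beyond sampling noise in all 10 groups. The mean chi-square per gene ran from 2.41 in thymus after to 32.0 in bladder before and 40.7 in thymus before. Medians over genes were lower, from 0.666 in thymus after to 4.64 in thymus before. For those of the 28 genes with at least 10 counts in a group, the median ran from 0.474 in vagina before to 7.42 in bladder before. Tissue labels were checked on the few markers that could be paired with identifiers. Foxa1 averaged 102 CPM in bladder before and at most 20.7 in the other groups before, and the urothelial plaque gene Upk1b averaged 181 CPM there but also 149 in thymus and 139 in trachea. Of 3 paired follicle markers, Tfap2b averaged 33.4 CPM in whisker before and at most 0.0820 in the other groups before, whereas Cd34 was at 0.0404 CPM there and at 4.46 in vagina. Of 4 paired thymic markers, only Hoxa3 stood apart in thymus before, with 9.67 CPM against at most 1.86 in the other groups before. Isl1 averaged 14.8 CPM in thymus and 13.2 in trachea, Aire 0.339 in thymus and 1.19 in vagina, and Cd83 0.167 in thymus and 4.72 in trachea. Cyp2f4, the single airway marker, was at 3.47 CPM in trachea before and at most 2.01 in the other groups before.

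RefSeq promoters, from 250 bases before to 50 bases after the annotated start, are shown for 4 of the genes, the 3 named genes that were also called lower in whisker cells after transplantation (Amot, Cplx2 and Adam19) and the glycosyltransferase B4galt4, which with Amot was chosen under every scaling, pseudocount and left-out sample tried. They come from RefSeq on the GRCr8 build, whereas the counts were made on Rnor 6.0, and for Amot the first of the listed starts is given. The Amot promoter lies at chrX:113837797-113838096 on the minus strand, that of Cplx2 at chr17:10236704-10237003 on the minus strand, that of Adam19 at chr10:30992511-30992810 on the plus strand and that of B4galt4 at chr11:75527128-75527427 on the minus strand. Capitals mark matches, on either strand, to the 6 motifs searched.
Amot: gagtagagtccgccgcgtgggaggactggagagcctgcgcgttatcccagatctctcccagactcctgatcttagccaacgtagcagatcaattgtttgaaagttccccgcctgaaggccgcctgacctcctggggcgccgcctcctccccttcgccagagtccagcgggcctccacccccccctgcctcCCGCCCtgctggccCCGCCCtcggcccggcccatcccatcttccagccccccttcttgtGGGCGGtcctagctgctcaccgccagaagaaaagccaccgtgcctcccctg
Cplx2: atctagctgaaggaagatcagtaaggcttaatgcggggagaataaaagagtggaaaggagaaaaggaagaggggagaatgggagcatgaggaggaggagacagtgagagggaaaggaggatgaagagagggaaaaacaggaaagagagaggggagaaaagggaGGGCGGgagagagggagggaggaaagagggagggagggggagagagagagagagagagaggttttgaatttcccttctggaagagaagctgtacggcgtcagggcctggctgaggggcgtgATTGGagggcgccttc
Adam19: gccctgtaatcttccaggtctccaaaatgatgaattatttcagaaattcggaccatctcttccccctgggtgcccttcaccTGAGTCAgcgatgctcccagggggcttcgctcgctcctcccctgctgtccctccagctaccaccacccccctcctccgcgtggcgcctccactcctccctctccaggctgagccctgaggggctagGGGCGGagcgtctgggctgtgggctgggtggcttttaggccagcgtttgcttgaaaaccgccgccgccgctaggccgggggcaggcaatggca
B4galt4: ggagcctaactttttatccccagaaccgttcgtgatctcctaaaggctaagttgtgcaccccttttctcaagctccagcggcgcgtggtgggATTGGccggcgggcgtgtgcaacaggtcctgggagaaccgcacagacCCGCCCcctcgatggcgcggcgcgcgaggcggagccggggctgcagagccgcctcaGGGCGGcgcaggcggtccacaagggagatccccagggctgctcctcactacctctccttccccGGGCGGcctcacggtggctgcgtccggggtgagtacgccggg

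The table held 13 promoters of 8 of the 12 named genes, since some genes have several starts: Amot, Cplx2, Adam19, Chn1, Atp2a3, B4galt4, Cnksr2 and Nhsl2. Gpd1, Acss3, Isg15 and Cryab were not matched. A GC box, GGGCGG on either strand, was present in 8 of the 13 promoters (61.5%), from 6 genes, and in 33.1% of all 33469 promoters of the table. A CCAAT box, spelled as its name, was present in 6 of the 13 (46.2%) and in 37.5% of all. The AP-1 motif TGANTCA was found once, in Adam19 (7.69% of the 13 and 7.33% of all). None of the 13 held the TATA box (TATAAA), the core of the interferon-stimulated response element or the TCF/LEF motif (CTTTGAT), which 14.2%, 3.92% and 3.63% of all promoters held. The median GC content was 63.7% in the 13 promoters and 51.7% in all, and its part in these shares was not tested. No matches of different motifs overlapped. These are matches of letters in a window of 300 bases, and promoters of the same gene share bases.

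Before transplantation the 28 genes lay on average over the 4 tissues 1.27 to 3.27 above whisker before on the log2(CPM+1) scale, with a median of 1.86. After transplantation the same mean excess ran from −0.957 to 0.975, with a median of 0.671. The mean fall per gene, before minus after, had a median of 1.20 and a range of 0.378 to 3.87. By tissue, the median excess went from 1.88 to 0.702 in bladder, from 2.03 to 0.944 in trachea, from 1.33 to 0.236 in vagina and from 1.69 to 0.603 in thymus. Vagina thus started lowest and ended nearest to whisker, and trachea stayed farthest above it. The mean level of the 28 genes in single samples, again in log2(CPM+1), was 3.05 to 3.88 in the 8 samples of the 4 tissues before, 1.82 to 2.57 in the 8 recovered ones, and 1.52 to 1.67 in the 4 whisker samples before and after. In bulk RNA, fewer cells that express a gene and less RNA per cell cannot be told apart.

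**Figure D1:**
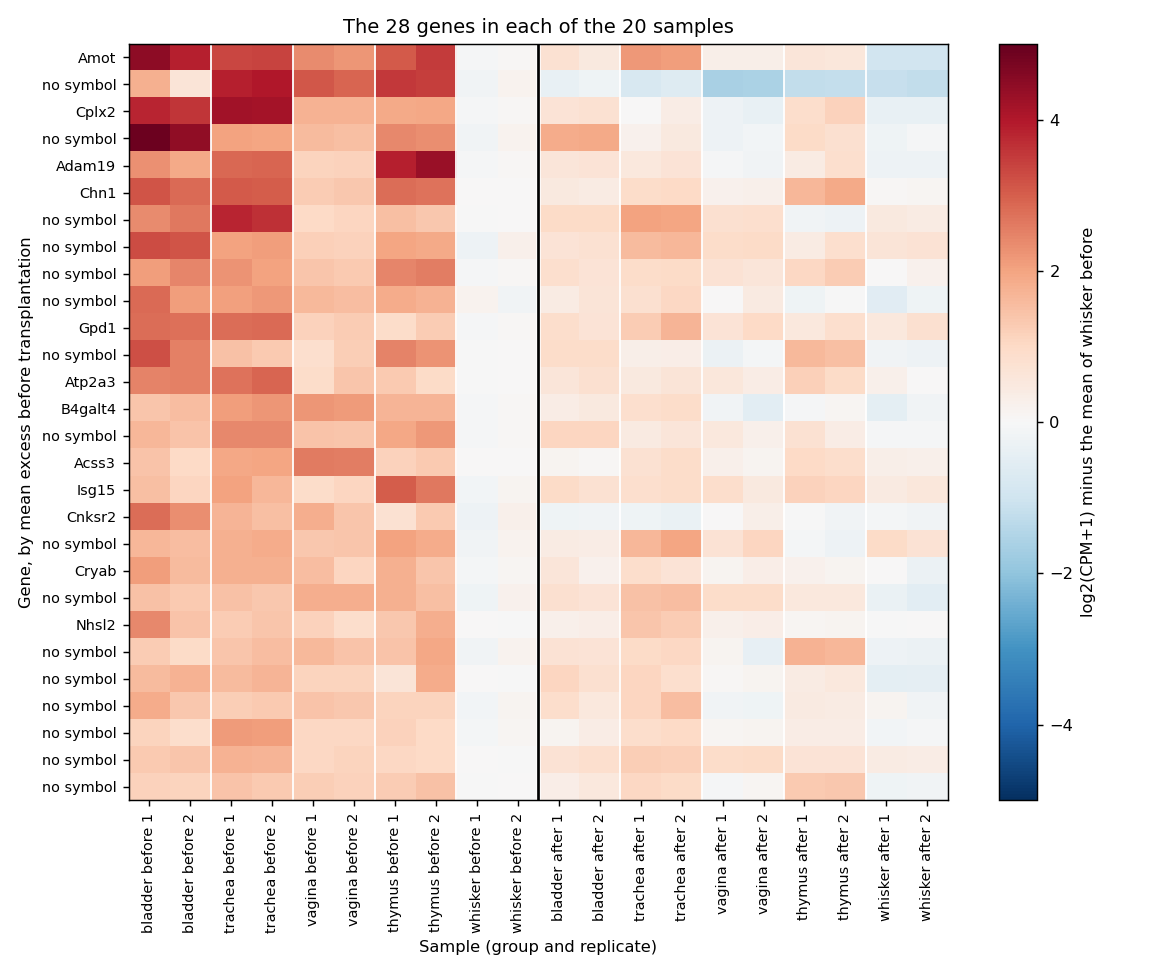
Level of each of the 28 genes (rows, ordered by their mean excess before transplantation) in each of the 20 samples (columns), as log2(CPM+1) minus the mean of the 2 whisker samples before. The left side shows the 4 tissues before transplantation in red, and the right side is mostly paler. The median excess after was 0.944 in trachea, 0.702 in bladder, 0.603 in thymus and 0.236 in vagina.

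The genes did not come back evenly. In bladder and vagina both recovered samples were below both samples before for all 28 genes, a state that 45.4% and 44.2% of all 13302 tested genes were in. In trachea this held for 24 genes (41.4% of tested genes) and in thymus for 25 (36.9%), and these falls follow from the rule. The tissue in which a gene stayed at least 1 above whisker was trachea for 9 genes, thymus for 8, bladder for 2 and vagina for none, and 9 genes had no such tissue. Of the named genes Amot, Gpd1 and Nhsl2 stayed up in trachea, Cplx2, Chn1, Atp2a3 and Isg15 in thymus, and Adam19, B4galt4, Acss3, Cnksr2 and Cryab in no tissue. A recovered level at or below that of whisker before was reached by 8 genes in vagina, 5 in thymus and 2 each in bladder and trachea. Trachea had the highest recovered level for 14 genes and thymus for 9, and vagina had the lowest for 17.

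**Figure D2:**
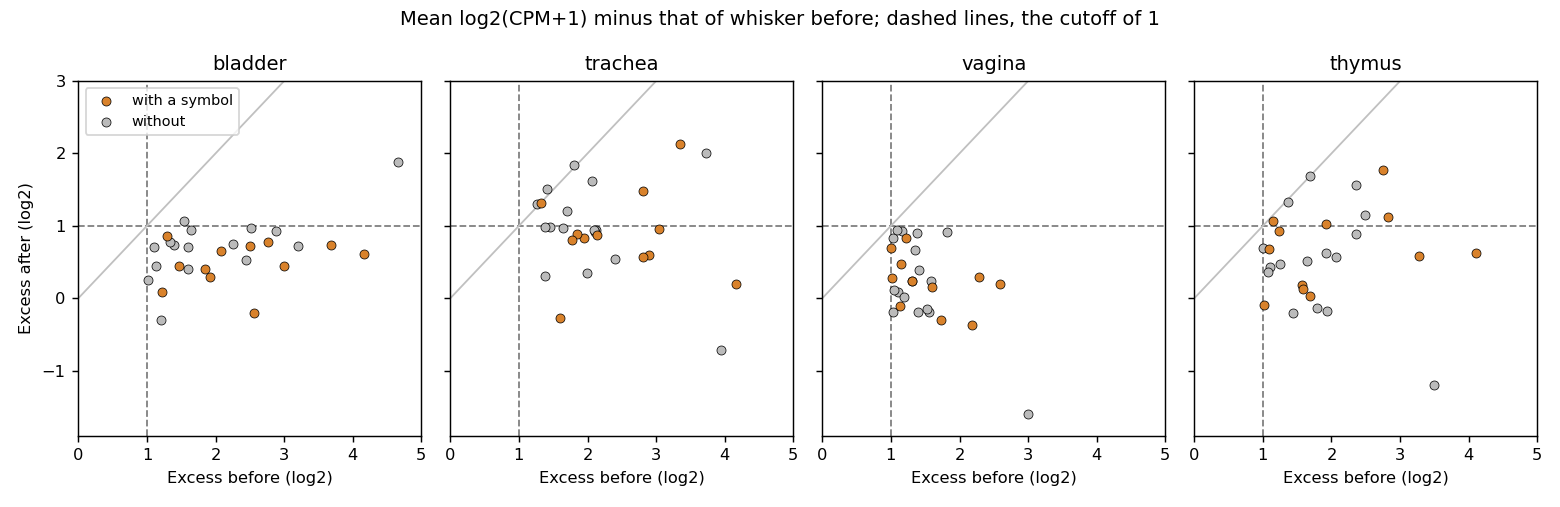
Excess over whisker before, as the difference in mean log2(CPM+1), before (horizontal axis) and after transplantation (vertical axis) for the 28 genes in each of the 4 tissues. Points under the grey diagonal fell, dashed lines mark the cutoff of 1, and orange points are the 12 genes with a symbol. In vagina all 28 points lie under the cutoff after transplantation, in trachea 9 lie above it.

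Low on this scale did not mean equal to whisker. The added 1 compresses differences between low levels, and many of the genes were near 1 CPM or below in whisker cells. As a plain ratio of pooled CPM, with 3 counts over a group as the floor, 14 of the 28 genes in recovered bladder were still at least 2 times the level of whisker before, 23 in trachea, 8 in vagina and 14 in thymus. Among all tested genes these shares were 13.3%, 12.3%, 8.1% and 11.7%. The genes nearest to the cutoffs among those chosen were Isg15, with a lowest excess before of 1.0045, Nhsl2 with 1.0184 and Cnksr2 with 1.0203. Just outside lay Raet1d, with an excess after of 1.0059 in the tissue that decided, Epn3 with 1.0126 (and 0.99203 as its lowest before) and Crat with 1.0159. Membership depended on the scale: 15 of the 28 genes were chosen again with a pseudocount of 0.5 and 12 with a pseudocount of 2, while leaving out 1 sample kept between 19 and 28.

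Amot, angiomotin, a junctional scaffold that binds the Hippo pathway effector YAP, had the largest mean excess before, 3.27. It was at 57.9 and 38.5 CPM in the bladder samples before, 26.02 and 26.8 in trachea, 12.8 and 11.4 in vagina, 21.5 and 29.3 in thymus and 1.58 and 1.799 in whisker. Recovered cells had 3.50 and 2.76 CPM in bladder, 11.1 and 10.5 in trachea, 2.25 and 2.31 in vagina, 3.06 and 3.00 in thymus and 0.396 and 0.395 in whisker. Both recovered samples were below both samples before in every tissue, whisker included, and recovered trachea remained far above the other recovered tissues.

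Chn1, chimaerin 1, a GTPase-activating protein for Rac, was at 0 counts in both whisker samples before and at 1 and 2 counts in the recovered ones, which is at or below the floor. Before transplantation it was at 7.96 and 6.12 CPM in bladder, 7.33 and 7.17 in trachea, 1.42 and 1.55 in vagina and 5.86 and 5.62 in thymus. After recovery it was at 0.399 and 0.320 CPM in bladder, 0.869 and 1.02 in trachea, 0.161 and 0.201 in vagina and 2.14 and 2.69 in thymus. Thymus thus kept the highest level, and bladder, the highest before with trachea, fell to about the level of 8 to 9 counts. Cnksr2, a scaffold of Ras signalling, ended within 0.28 of whisker before on the log2(CPM+1) scale in all 4 tissues. It had 0.0376 to 0.637 CPM in the 8 recovered samples against 1.21 to 8.18 CPM before. At such levels the added 1 compresses ratios. Pooled, recovered cells had 0.0846 CPM in trachea, 0.147 in bladder, 0.230 in thymus and 0.4935 in vagina, against 0.323 in whisker before. The 2 whisker samples before differed for Cnksr2, at 0.121 and 0.554 CPM.

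Adam19, a membrane-anchored metalloprotease, was highest in thymus before, at 16.8 and 22.7 CPM, followed by trachea with 7.66 and 8.06, bladder with 4.84 and 3.39 and vagina with 1.57 and 1.69. Recovered thymus had 0.569 and 1.16 CPM, trachea 0.724 and 0.903, bladder 0.842 and 0.921 and vagina 0.161 and 0.0671. The large spread among tissues before was no longer present among recovered bladder, trachea and thymus, whose samples overlapped in pairs of tissues. The rule had set an upper limit on the recovered levels in at least 3 tissues, so this narrowing follows in part from the choice. Whisker cells had 0.162 and 0.231 CPM before and no count in either sample after.

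Cplx2, complexin 2, which binds the SNARE complex that drives vesicle fusion, had 16.9 and 14.1 CPM in bladder before, 22.4 and 21.7 in trachea, 3.25 and 3.28 in vagina, 3.80 and 3.87 in thymus and 0.243 and 0.323 in whisker. After recovery it had 1.06 and 1.20 CPM in bladder, 0.290 and 0.677 in trachea, 0.0804 and 0 in vagina, 1.36 and 1.87 in thymus and 0 in both whisker samples. Trachea, the highest before, fell below bladder and thymus. Atp2a3, a calcium pump of the endoplasmic reticulum, was at 4.72 and 4.89 CPM in bladder before and 5.78 and 6.65 in trachea, and at 0.576 and 0.801 and at 0.434 and 0.602 after recovery. Its thymus samples overlapped, with 1.53 and 1.01 CPM before and 1.31 and 0.988 after, and it had started lower there than in bladder and trachea.

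Gpd1, the cytosolic glycerol-3-phosphate dehydrogenase, had 7.18 and 7.00 CPM in bladder before and 7.38 and 7.42 in trachea, against 1.65 and 1.91 in vagina and 1.25 and 1.85 in thymus. After recovery it had 1.20 and 0.921 CPM in bladder, 1.88 and 2.86 in trachea, 0.924 and 1.37 in vagina and 0.700 and 1.16 in thymus. Whisker cells moved the other way, from 0.162 and 0.231 CPM to 0.704 and 1.11. Acss3, a mitochondrial acyl-CoA synthetase for short chains, was highest in vagina before, at 5.13 and 4.92 CPM, and ended there at 0.201 and 0.101. In bladder it went from 1.71 and 1.01 CPM to 0.0887 and 0.0400, and in trachea from 2.79 and 2.90 to 0.676 and 0.903. Thymus changed little, from 1.25 and 1.45 CPM to 1.01 and 0.818, and its excess after of 0.933 lay just under the cutoff of 1. B4galt4, a galactosyltransferase of glycan synthesis, had 8.44 to 16.1 CPM in the 8 samples of the 4 tissues before and 1.51 to 5.94 CPM after, and 1.58 to 2.86 CPM in the 4 whisker samples. In recovered vagina, at 2.21 and 1.51 CPM, it was below both whisker samples before, at 2.47 and 2.86.

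Isg15, a ubiquitin-like protein induced by interferon, was highest in thymus before, at 14.3 and 10.5 CPM, and lowest in vagina, at 2.53 and 2.97. The 8 recovered samples of the 4 tissues lay closer together, from 1.64 to 3.19 CPM, where the rule had limited the level in at least 3 of the tissues. Whisker cells had 0.687 and 1.06 CPM before and 1.54 and 1.74 after, a difference that did not pass the test given below. Cryab, a small heat shock protein, had 2.22 to 5.43 CPM in the 8 samples before and 0.682 to 1.83 CPM in the recovered ones. The 2 sets did not overlap, which largely follows from the rule. Nhsl2 fell in bladder, from 4.35 and 1.76 CPM to 0.222 and 0.280, and in vagina and thymus, but in trachea it had 1.43 and 1.66 CPM before and 1.64 and 1.43 after.

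**Figure D3:**
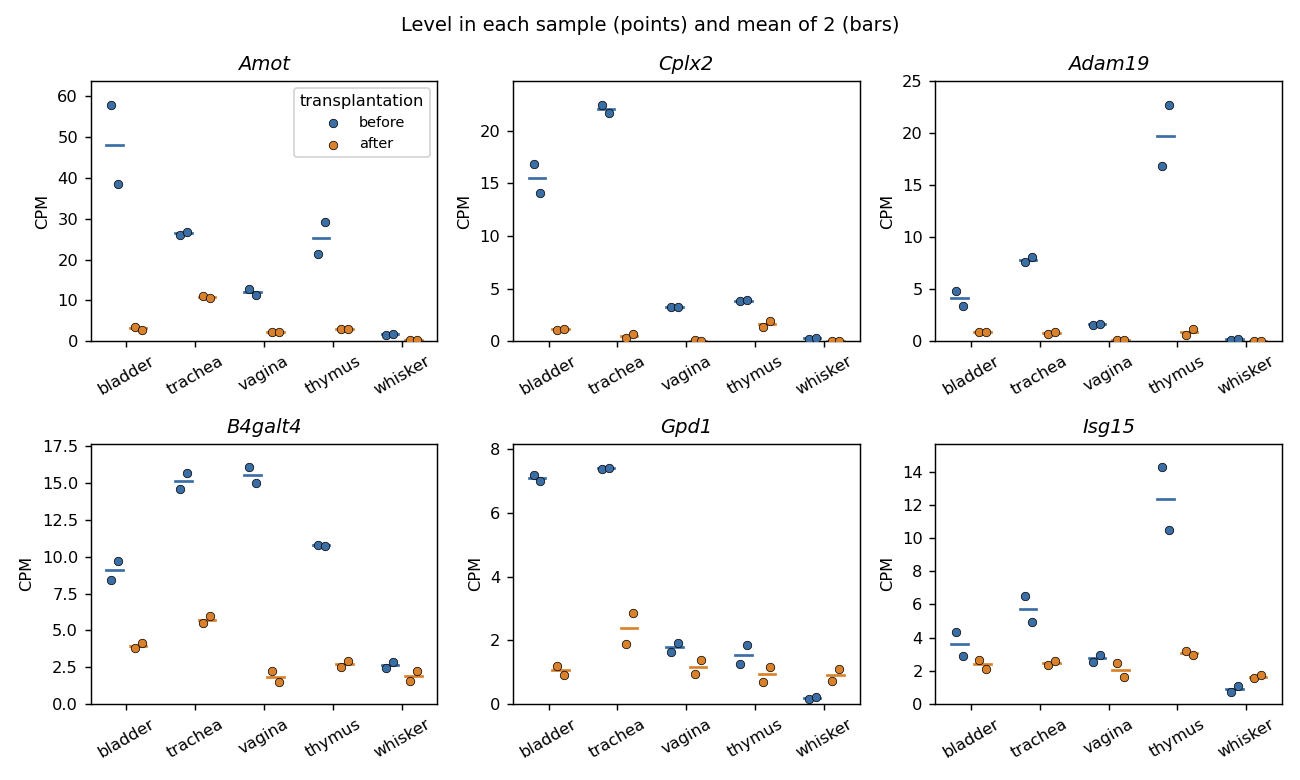
CPM of 6 of the genes in every sample (points) with the mean of the 2 samples of a group (bars), before (blue) and after transplantation (orange), on linear axes from 0. Amot stayed highest in recovered trachea at 11.1 and 10.5 CPM, and Gpd1 and Isg15 were higher in both recovered whisker samples than in both whisker samples before.

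Among the genes without a symbol, the largest mean fall of all 28, 3.87, was that of ENSRNOG00000019244. It had 125 and 139 CPM in trachea before, 99.9 and 92.6 in thymus, 72.5 and 63.9 in vagina and 28.4 and 12.5 in bladder, against 6.67 and 8.72 in whisker. After recovery it was at 1.81 to 6.41 CPM in the 4 tissues and at 2.91 and 2.69 in whisker, so every recovered sample was below both whisker samples before. The 16 genes without a symbol had a median mean excess before of 1.77 and after of 0.711, and the 12 with one had 1.89 and 0.508.

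Recovered whisker cells did not enter the rule, so their change asks whether the same genes moved in cells already of hair follicle origin. These cells were clone 7 before and subclone 14 after, so transplantation and clone cannot be told apart in this change. By limma voom, calling genes whose adjusted p was under 0.05 and whose level differed at least 2 times, 4 of the 28 genes rose in whisker cells after transplantation and 4 fell, where 2.15% of all tested genes rose and 3.83% fell. The reference, whisker before, had been required to be low against the 4 tissues. The median log2 fold change of the 28 genes was −0.15, also with genes at 0 in a group set to their bound, and −0.0018 over all tested genes. Of the 92 genes that stayed high in all 4 tissues, chosen against the same reference, 20 rose and 2 fell, with a median of 0.56.

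Amot, Cplx2 and Adam19 fell in whisker cells as they did in the other tissues. Amot had 39 counts in each whisker sample before and 9 and 10 after, a log2 fold change of −2.004 ± 0.65 (SE, n = 2 per group, limma voom adjusted p = 0.031), and its call was lost when any 1 of the 4 whisker samples was left out. Cplx2 went from 6 and 7 counts to 0 in both samples, at least 4.48-fold lower with 3 counts over the group as the floor (limma voom adjusted p = 0.0037). Adam19 went from 4 and 5 counts to 0, at least 3.10-fold lower (limma voom adjusted p = 0.017), a call lost when whisker before replicate 2 or either recovered whisker sample was left out. The fourth gene that fell was ENSRNOG00000019244, at −1.41 ± 0.44 (SE, limma voom adjusted p = 0.028), and it lost its call in the same 3 cases as Adam19, with an adjusted p of 0.11 to 0.14. The call of Cplx2 was kept whichever of the 4 whisker samples was left out.

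Gpd1 and Acss3 rose in whisker cells, from a level before that the rule had required to be low. Gpd1 went from 4 and 5 counts to 16 and 28, a log2 fold change of 2.12 ± 0.51 (SE, n = 2 per group, limma voom adjusted p = 0.006), and the call was lost without whisker before replicate 1. Acss3 had no count in whisker before and 5 in each recovered sample, at least 3.22-fold higher (limma voom adjusted p = 0.0021). ENSRNOG00000004532 rose by 1.13 ± 0.24 on the log2 scale (SE, limma voom adjusted p = 0.0025) and ENSRNOG00000025075 by 1.11 ± 0.27 (SE, limma voom adjusted p = 0.0066), calls that were both lost without whisker before replicate 1 and, for the first, also without recovered whisker replicate 1. The changes of Amot, Cplx2, Adam19, Gpd1 and Acss3 rest on low levels, with 9 to 97 counts over the 4 samples. Single whisker samples had 66 to 189 counts of ENSRNOG00000019244, 48 to 124 of ENSRNOG00000004532 and 25 to 75 of ENSRNOG00000025075. Isg15, at 0.96 ± 0.44, B4galt4, at −0.46 ± 0.24, Cryab, at −0.48 ± 0.61, and Cnksr2, at −0.41 ± 0.84, did not pass the test. Without whisker before replicate 1, 1 gene in place of 4 was called as rising, and without whisker before replicate 2 or either recovered whisker sample, 1 in place of 4 was called as falling.

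Set against recovered whisker cells, the cells that had been through the same procedure, many of the 28 genes were still higher. Recovered trachea had 21 of 28 called higher (9.83% of all tested genes), recovered bladder 17 (13.5%), recovered thymus 11 (10.4%) and recovered vagina 5 (5.68%). Called lower was 1 gene in thymus (6.21%), and none in bladder (6.59%), trachea (9.22%) and vagina (6.2%) by limma voom, edgeR or DESeq2, with 2, 0 and 0 genes lower at an unadjusted p under 0.05. The rule had required a low level against another reference, whisker before, in at least 3 of the 4 recovered tissues. Still at least 1 above that reference were 9 genes in trachea, 8 in thymus and 2 in bladder. The counts called higher thus depend in part on how the genes were chosen. The median log2 fold change of the 28 genes was 1.47 in trachea, 1.25 in bladder, 0.95 in thymus and 0.48 in vagina, the last being 0.38 with genes at 0 in a group set to their bound. It was between −0.006 and 0.014 over all tested genes. The 4 comparisons share the recovered whisker samples. For the 92 genes that stayed high, 77, 79, 70 and 58 were called higher in the same order of tissues. These 92 had been chosen for levels at least 1 above whisker before in the same recovered samples, so their counts largely follow from that choice. When the rule was applied with recovered whisker as the reference after transplantation, it chose 87 genes, of which 20 were among the 28. Amot and Cplx2 were not.

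Amot was higher than in recovered whisker in all 4 recovered tissues, with a log2 fold change of 4.60 ± 0.57 (SE) in trachea (limma voom adjusted p = 5e-06), 2.95 ± 0.61 in bladder (0.00066), 2.77 ± 0.60 in thymus (0.0012) and 2.47 ± 0.62 in vagina (0.0041). Cplx2 was at least 26.4-fold higher in recovered thymus, at least 18.2-fold in bladder and at least 8.12-fold in trachea, and in vagina, with 2 counts in all, it was not detectably different from the 0 counts of whisker. Adam19 was at least 14.4-fold higher in thymus, 14.1-fold in bladder and 13.2-fold in trachea, and in vagina it was at least 1.76-fold higher on 6 counts, with an adjusted p of 0.047. These bounds use 3 counts over the recovered whisker group.

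Chn1, with 3 counts in recovered whisker, was higher by a pooled ratio of 39.2 in thymus (95% exact counting interval 13.1 to 193), 15.2 in trachea (4.89 to 76.6) and 5.72 in bladder (1.66 to 30.5), and its ratio in vagina was 2.93 (0.753 to 16.5). Such intervals cover counting error only. Atp2a3 was called higher in all 4 recovered tissues, with its largest log2 fold change in thymus, 3.18 ± 0.63 (SE, limma voom adjusted p = 0.0005), and its smallest in vagina, 1.88 ± 0.68 (0.034). B4galt4 was higher in trachea by 1.49 ± 0.21 (limma voom adjusted p = 1.7e-05) and in bladder by 1.11 ± 0.22 (0.00048), and did not pass the test in thymus, at 0.43 ± 0.23, or vagina, at −0.07 ± 0.25. Cryab was higher in trachea, by 2.05 ± 0.52 (0.0034), and in bladder, by 1.48 ± 0.55 (0.033). Gpd1 was higher in trachea only among the 4, by 1.29 ± 0.33 (0.0032), and whether trachea differed from the others in this was not tested. Acss3 was higher in thymus, by 1.90 ± 0.43 (0.0015), and in trachea, by 1.73 ± 0.44 (0.0034). Nhsl2, with 1 count in recovered whisker, was called higher in trachea, bladder and vagina. Isg15, at 0.26 to 0.79, and Cnksr2, at −1.23 to 1.22, were not called in any of the 4. In vagina 2 genes in place of 5 were called without vagina after replicate 1 or without whisker after replicate 2, and 3 without whisker after replicate 1; the calls of Adam19 and Nhsl2 were lost in all 3 cases. Outside vagina, Cryab and Nhsl2 in bladder, Gpd1 and Cryab in trachea and Atp2a3 in both each lost their call when 1 sample was left out.

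**Figure D4:**
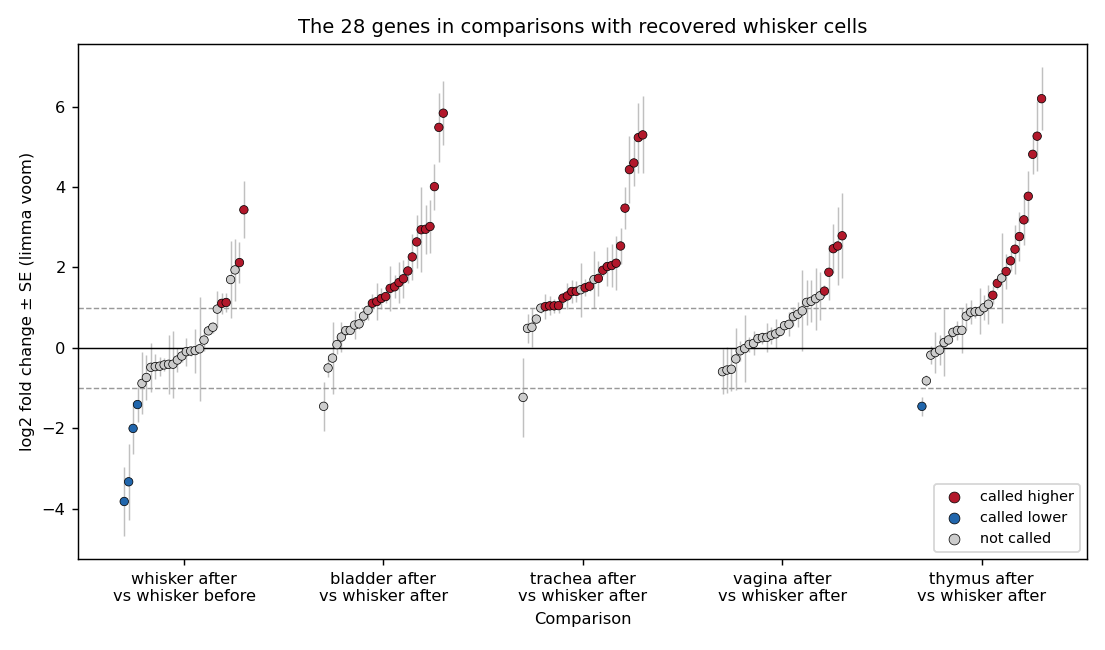
Log2 fold change with its standard error (limma voom, n = 2 per group) of the 28 genes in recovered whisker against whisker before, and in each recovered tissue against recovered whisker, each column ordered by value. Red points were called higher and blue points lower, and dashed lines mark a fold change of 2. Recovered trachea has 21 red points and recovered vagina 5. For genes with 0 counts in a group the fitted value is not a bound on the fold.

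The rule asked for a level above whisker in each tissue before transplantation and for no order among the tissues, so the tissues were also compared with each other. Bladder and vagina differed in 14 of the 28 genes, 12 of them higher in bladder, where 25.6% of all tested genes differed and 14.8% were higher in bladder. Bladder and thymus differed in 10 (27.2%), trachea and thymus in 9 (20.3%), trachea and vagina in 8 (18.8%), all higher in trachea (9.93% of tested genes), bladder and trachea in 7 (15.5%) and vagina and thymus in 6 (17.0%). Trachea was the highest of the 4 tissues before for 11 genes, bladder for 9, thymus for 5 and vagina for 3, and vagina was the lowest for 16.

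Cplx2, Atp2a3 and Gpd1 shared an order, with bladder and trachea above vagina and thymus. For Cplx2 the log2 fold change of trachea against vagina was 2.66 ± 0.19 (SE, limma voom adjusted p = 6.6e-09), and for Gpd1 it was 1.97 ± 0.23 (2.7e-06) and for Atp2a3 2.22 ± 0.30 (1e-05). None of these 3 passed the test between bladder and trachea at a fold change of 2 or between vagina and thymus. Adam19 and Isg15 were highest in thymus, Adam19 by 3.52 ± 0.26 over vagina (1.7e-08), 2.20 ± 0.19 over bladder (3.7e-08) and 1.34 ± 0.15 over trachea (1.9e-06), and Isg15 by 2.11 ± 0.25 (2.9e-06), 1.72 ± 0.22 (4.9e-06) and 1.14 ± 0.20 (0.00013) over the same. Chn1 was low in vagina alone, by 2.22 ± 0.21 on the log2 scale against bladder (1.5e-07), 2.19 ± 0.21 against trachea (2.8e-07) and 1.89 ± 0.22 against thymus (2.5e-06), and the other 3 tissues were not called different from each other. Acss3 was higher in vagina than in bladder, by 1.91 ± 0.23 (2.2e-06), and than in thymus, by 1.94 ± 0.23 (3.8e-06). B4galt4 and Cryab were not called in any of the 6 pairs.

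Markers of fibroblasts moved with these levels in bladder and trachea, and those of urothelium and of simple epithelium in several tissues. The summed CPM of the 5 fibroblast markers that could be paired, of 18 listed (Col1a1, Col3a1, Col6a3, Dcn and Bgn), was 261 to 344 in bladder before and 336 to 338 in trachea before, and 26.01 to 56.97 in the other groups before. After recovery it was 27.4 to 59.6 in all 5 groups. In vagina the sum was 32.9 to 40.6 before and 27.4 to 37.7 after, and in thymus 26.01 to 26.5 before and 52.7 to 55.8 after. The immune markers Cd68 and Cd74, of 12 listed, summed to 61.6 to 63.6 CPM in vagina before and 17.8 to 20.2 after, to 25.1 to 28.6 and 61.5 to 70.3 in trachea, and to between 30.4 and 64.4 in bladder and thymus before and after. The 3 paired urothelial markers of 11 (Upk1b, Psca and Foxa1) summed to 319 to 330 CPM in bladder before and 194.5 to 203 after, to 175 to 187 and 45.6 to 48.1 in trachea, to 61.4 to 67.1 and 2.29 to 2.78 in vagina and to 144 to 184 and 98.9 to 104 in thymus. Their sum was thus lower after recovery in all 4 tissues, and each of the 3 had a lower mean in bladder, trachea and vagina. In thymus only Upk1b was lower, with means of 149 CPM before and 76.2 after. There Psca went from 11.6 to 20.2 CPM and Foxa1 from 3.14 to 4.89. The 16 paired markers of simple and glandular epithelium, of 26 listed, summed to 8834 to 9893 CPM in bladder before and 6452 to 6590 after, to 4291 to 4305 and 2287 to 2374 in trachea and to 3731 to 3755 and 1503 to 1515 in vagina. In thymus this sum overlapped, at 2433 to 2962 before and 2805 to 2868 after. Endothelial and muscle markers, 1 of 7 each, stayed at or below 16.8 CPM in every sample, and no melanocyte marker could be paired. The 6 paired squamous markers of 17 went from 19.8 to 80.03 up to 619 to 682 in bladder and from 42.3 to 66.9 up to 981 to 1043 in thymus, and from 394 to 427 down to 252 to 262 in trachea and from 745 to 774 down to 504 to 514 in vagina. In trachea and vagina these sums followed Krt4, which averaged 403.5 and 653 CPM before and 240.1 and 14.7 after. Of the other 5 squamous markers, all had a higher mean after recovery in vagina, among them Krt10 with 57.7 and 316 CPM, and 4 in trachea. The part of these marker groups in the levels of the 28 genes was not tested.

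Only 2 of the gene lists examined held any of the 12 named genes, the interferon response with Isg15 and the proteases with Adam19. Of the 42 genes of the interferon list 7 were paired with an identifier, Isg15 and 6 others, all tested. Of these 6, 2 rose in whisker cells after transplantation, Ifit2 by 3.33 ± 0.52 (SE, limma voom adjusted p = 0.00018) and Dhx58 by 1.21 ± 0.12 (2e-06), with none called lower, where 2.15% of all tested genes rose and 3.83% fell. Against recovered whisker, recovered bladder had 4 of the 6 higher (13.5% of all tested genes) and 1 lower (6.59%), trachea 4 higher (9.83%), thymus 3 (10.4%) and vagina 1 (5.68%). Sp100 was higher in all 4. Of 29 other proteases and protease inhibitors, none rose and 6 fell in whisker cells (Timp3, Adamts9, Capn8, Ctsh, Anpep and Cpm). Against recovered whisker 12 of the 29 were higher and 4 lower in bladder (13.5% and 6.59% of all tested genes), 5 and 9 in trachea (9.83% and 9.22%), 5 and 8 in vagina (5.68% and 6.2%) and 12 and 6 in thymus (10.4% and 6.21%). Adamts1 and Ctsh were higher and Adamts4 and Klk7 lower in all 4.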

How the data were processed

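RNA of 20 samples, 2 in each of 10 groups, was sequenced from poly(A)-selected stranded libraries. The authors trimmed the reads with cutadapt 1.8, filtered them, aligned them with STAR 2.5.2b to Rnor 6.0 and counted them per Ensembl gene with HTSeq 0.6.1, and deposited the raw counts per sample. Multiply aligned reads (11601894 to 19374286 alignments per sample) were not counted, which lowers genes with near-identical copies, and rows that name no gene held 14.5% to 20.3% of the counted reads and were left out.

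The genes and lists described were chosen with earlier results of these data known. Levels for the rule used CPM from the totals of gene counts and a pseudocount of 1. For tests, counts were scaled by TMM (edgeR 4.0.16), a gene was kept if any sample, that is at least 1, reached 1 CPM (13302 genes, all 28 among them, which pass through the groups where they are high), and limma 3.58.1 (voom) in R 4.3.3 was fitted to all samples with 1 mean per group. The Benjamini-Hochberg adjustment was made within each of the 11 comparisons tested, and calls needed an adjusted p under 0.05 with at least a 2-fold change. The rule used none of these 11 differences, but it used the levels of every group except recovered whisker. At least 1 side of each comparison had thus entered the rule. Counting intervals are exact (Clopper-Pearson, 95%).

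Symbols came from the study's supplementary lists, which pair 2311 identifiers. Among genes with a symbol the text names the 10 with the largest mean excess before, the 10 with the largest mean fall, the 5 highest and 5 lowest changes in whisker, up to 4 per gene list, 2 per exception tissue and the 3 nearest to the cutoffs on each side. This names all 12. The identifiers without a symbol, and the other genes of the lists, were named after their values were seen. The study's own fold change columns were not used. Alternatives were DESeq2 1.42.0 (Wald test, size factors), the quasi-likelihood test of edgeR, other filters, pseudocounts, cutoffs and references, fits of only the 4 samples compared, the replicate number as a block, and leaving out each sample. The fits were tested on simulated counts.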

Additional observations from a re-analysis of the deposited data

Results flagged for a closer look

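Chn1, Gpd1, Acss3 and Isg15 were higher in both recovered whisker samples than in both whisker samples before, while in bladder, trachea, vagina and thymus both recovered samples were below both samples before. The same held for ENSRNOG00000019330, ENSRNOG00000025075 and ENSRNOG00000017254, which have no symbol. Of the 28 genes, 8 were higher and 11 lower in both recovered whisker samples, and the share of all tested genes in either state was not counted. The change in whisker on the mean log2(CPM+1) scale was 0.0860 for Chn1, 0.664 for Gpd1, 0.274 for Acss3 and 0.501 for Isg15. The difference between whisker and the other tissues was not tested, because the rule chose the genes for their fall in the tissues and for a low level in whisker before. Whisker cells before and after also carried different clone labels. Chn1 went from 0 counts to 1 and 2. The changes of Gpd1 and Acss3 passed the test in whisker, and those of Chn1 and Isg15 did not.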

How the results depend on the processing

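The number of genes chosen was 24 with TMM scaling (23 shared with the 28), 28 with a pseudocount of 0.5, 26 with one of 2, 15 with a difference of 1.5 (4 shared), 87 with recovered whisker as the reference after transplantation and 9 when all 4 tissues had to be low, and leaving out 1 sample gave 26 to 31. Amot and B4galt4 were among 4 genes chosen in all 21 settings of scaling, pseudocount and left-out sample. Counts of the 28 genes called in each comparison moved by over 1.5 times under few settings. Those lower in whisker after transplantation were 2 with no low-count filter and 2 with only the 4 samples compared (Cplx2 and Adam19 did not reach 1 CPM in them), and 1 to 3 when a sample was left out, and those higher were 1 to 4 when a sample was left out. Those higher in recovered vagina than in recovered whisker were 3 with only the 4 samples compared, 9 with no fold-change minimum and 2 to 5 when a sample was left out. Those lower in recovered bladder were 1 with no low-count filter, and those lower in recovered thymus 2 with no fold-change minimum. With no fold-change minimum the tissues before differed in 15 genes between bladder and trachea, 22 between bladder and vagina, 17 between bladder and thymus, 17 between trachea and vagina and 13 between vagina and thymus. In whisker cells Cnksr2, whose log2 fold change did not pass the test, was at −1.45 without whisker before replicate 1 and turned to 0.56 without replicate 2. Apart from the fold-change minimum and genes not tested, the cause of these shifts was not tested. Settings for the named genes in comparisons other than whisker after against before were chosen after seeing the data, and none reversed a direction there.

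The replicate numbers were not taken to pair the samples, since the deviations of same-numbered samples correlated between −0.12 and 0.24 over 45 pairs of groups. With the replicate number as a block, 1 of the 28 genes was lower in recovered bladder than in recovered whisker in place of 0, 23 in place of 21 were higher in recovered trachea and 12 in place of 11 in recovered thymus.

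Depth limits the genes near 3 counts in whisker cells, where the level of Chn1, Acss3, Atp2a3, Nhsl2, Cplx2 and Adam19 could not be measured in at least 1 group.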
